A study of Mus musculus with 12 samples.

Results

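Of the genes that set how the heartbeat is started and passed on, 7 are described here in ventricle samples of mouse offspring: the sodium channel subunit gene Scn4b, the pacemaker and low-voltage calcium channel genes Hcn2, Hcn4 and Cacna1g, and the gap junction genes Gja1, Gja5 and Gjc1. They were taken by name from the 78317 gene IDs of a read count table, and all 7 were among the 17130 genes that passed the filter on low counts and were tested. The animals were C57BL/6J mice, none of them injured: 6 offspring of males that had a cardiac cryoinjury (a freezing injury of the heart) on postnatal day 1, and 6 offspring of uninjured males. Both groups had the same age label, 3 wpp, although the same text calls the animals adult. The injured-sire group held 3 males and 3 females and the uninjured-sire group 4 males and 2 females. No sex, sire or litter is given for each animal, and the p-values here cover only the variation among these mice. The labels call injured-sire replicate 16 a PCA outlier, and it was kept out of the comparison, so that 5 libraries were set against 6. A sex-linked score, of Xist minus Y-linked genes, was 8.44 to 11.7 in injured-sire replicates 12, 15 and 17 and uninjured-sire replicates 19 and 21. It was -7.71 to -4.11 in the other compared libraries. By this score all 3 injured-sire females were compared, and replicate 16 would be a male, so the sexes were less balanced than in the full groups.

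Voltage-gated sodium channels carry the fast upstroke of the cardiac action potential, and beta subunits such as the one encoded by Scn4b change how the pore opens and closes. Hcn channels open when the membrane becomes more negative and carry the pacemaker current; Hcn4 is the main isoform of the sinoatrial node, and Hcn2 is known in working myocardium. Connexins form the gap junctions through which current passes from cell to cell. Gja1 (connexin Cx43) is the main connexin of ventricular muscle, Gja5 (Cx40) is known from atrium, Purkinje fibres and arterial endothelium, and Gjc1 (Cx45) from the nodes.

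The libraries held 30537315 to 42090257 counts. The 8 listed cardiac myocyte markers had a summed level of 70809 to 83385 CPM (counts scaled to library size) in injured-sire libraries. In uninjured-sire libraries the sum was 66083 to 77760 CPM. Myh6 alone had a mean of 38162 CPM in injured-sire and 35400 CPM in uninjured-sire animals. The sum shows myocyte RNA and does not separate ventricle from atrium. All 6 atrial markers were found too, at a summed 3668 to 4208 CPM in injured-sire and 3397 to 4024 CPM in uninjured-sire libraries, so these markers were present in samples labelled ventricle. In bulk tissue, fewer cells of a type and less RNA per cell cannot be told apart. Marker sums of airway and lung ran from 25.1 to 351 CPM in injured-sire and from 0.266 to 219 CPM in uninjured-sire libraries, and their part in the values below was not tested beyond a fit with airway and fat scores. In that fit the log2 fold change of Scn4b was -0.32, against -0.14 without the scores, and that of Gja1 was -0.17 (edgeR unadjusted p = 0.0788, adjusted p = 0.611), against -0.21 without them.

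None of the 7 genes was called different between the groups (edgeR quasi-likelihood test, adjusted p from 0.399 for Gja1 to 0.992 for Hcn2), where 0.105% of all genes tested were called. At an unadjusted p below 0.05 there was 1, Gja1, whose mean was lower in offspring of injured males, against 8.96% of all genes in either direction and 4.68% with a lower value. The log2 fold change was above 0 for 4 of the 7, against 50.1% of all genes, and the median of the 7 was 0.0049 against 0.00019 over all genes. The groups overlapped in all 7, where 1.06% of all genes did not overlap. The 95% confidence intervals were narrow for most: the difference lay between -8.69% and 10.3% for Hcn2, but between -40.1% and 37.7% for Scn4b.

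**Figure D1:**
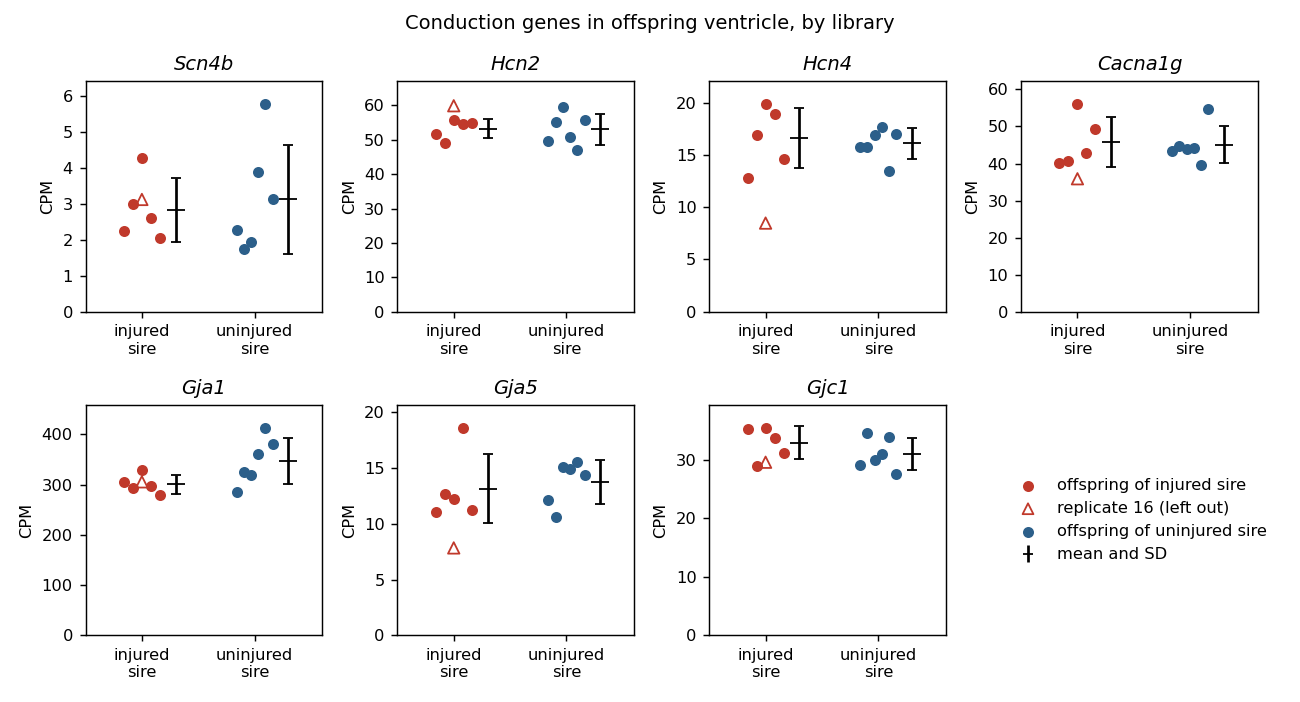
CPM of the 7 conduction genes (vertical axes, from 0), with 1 filled point per library, injured-sire left and uninjured-sire right, and the mean and SD in black. The open triangle is injured-sire replicate 16, which is in no mean and whose CPM come from a scaling of all 12 libraries. The groups overlap in every panel, and the triangle lies below all filled points for Hcn4, Cacna1g and Gja5.

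Promoter sequence is shown for 4 genes: Scn4b and Gja1, whose levels had the highest correlation of the member pairs over the 11 compared libraries, and Hcn4 and Gja5, which were both lowest in injured-sire replicate 16. RefSeq promoter entries were matched for 5 of the 7 genes (not for Cacna1g and Gjc1), and the 250 bases before each start are given 5′ to 3′. Capitals mark matches, on either strand, to the AP-1 motif TGANTCA or the GATA motif AGATAA.
Scn4b, upstream of the RefSeq start on the plus strand, GRCm38.p6 chr9:45138374-45138623: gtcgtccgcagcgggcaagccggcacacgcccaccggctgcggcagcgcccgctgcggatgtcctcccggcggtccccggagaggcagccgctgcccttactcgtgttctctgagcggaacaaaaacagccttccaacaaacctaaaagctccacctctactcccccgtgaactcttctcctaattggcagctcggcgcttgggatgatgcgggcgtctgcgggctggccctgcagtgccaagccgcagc
Gja1, upstream of the RefSeq start on the plus strand, GRCm38.p6 chr10:56377050-56377299: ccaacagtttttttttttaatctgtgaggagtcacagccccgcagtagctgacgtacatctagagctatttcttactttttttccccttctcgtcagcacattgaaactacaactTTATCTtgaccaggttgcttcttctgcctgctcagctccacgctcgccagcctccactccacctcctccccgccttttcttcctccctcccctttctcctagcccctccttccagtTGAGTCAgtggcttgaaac
Hcn4, upstream of the RefSeq start on the plus strand, GRCm38.p6 chr9:58822699-58822948: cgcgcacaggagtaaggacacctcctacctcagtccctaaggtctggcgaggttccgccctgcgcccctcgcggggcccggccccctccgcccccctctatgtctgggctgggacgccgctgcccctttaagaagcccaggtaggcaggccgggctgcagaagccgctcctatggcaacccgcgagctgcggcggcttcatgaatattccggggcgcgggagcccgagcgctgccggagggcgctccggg
Gja5, upstream of the RefSeq start on the plus strand, GRCm38.p6 chr3:97032152-97032401: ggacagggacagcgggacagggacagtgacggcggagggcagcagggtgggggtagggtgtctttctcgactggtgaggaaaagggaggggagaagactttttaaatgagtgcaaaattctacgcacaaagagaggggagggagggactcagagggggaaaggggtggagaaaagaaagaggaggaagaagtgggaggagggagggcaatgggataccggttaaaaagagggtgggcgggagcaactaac
Besides these 2 motifs, the clock E-box CACGTG, the T-box motif TCACACC, the NKX2-5 motif TNAAGTG and the MEF2-like motif TATTTTTA were searched. The Gja1 window held 1 AP-1 match, 19 to 13 bases before the start, and 1 GATA match, 135 to 130 bases before it, and the other 4 windows, that of Hcn2 included, held no match to any of the 6. Among 32841 promoter windows of the same length, 6.75% held the AP-1 motif, 9.99% the GATA motif, 6.02% the E-box, 3.33% the T-box motif, 10.1% the NKX2-5 motif and 2.45% the MEF2-like motif. The windows also differed in base composition. Hcn4 had 71.2% G and C and 25 CpG pairs, Hcn2 70.4% and 16, and Scn4b 66.0% and 23, against a median of 52.4% and 6 over all windows, while Gja5 had 56.4% and 7, and Gja1 had 6 CpG pairs.

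Scn4b (ENSMUSG00000046480, chromosome 9, 45049693 to 45065450, plus strand, GRCm39) was the scarcest of the 7 and the most uneven between animals. It had 2.24, 3.00, 4.29, 2.60 and 2.06 CPM in injured-sire replicates 12, 13, 14, 15 and 17. Uninjured-sire libraries ran from 1.73 to 5.76 CPM with a median of 2.701, and the highest, replicate 22, lay above every injured-sire library. The means were 2.84 ± 0.887 CPM in injured-sire animals (SD, n = 5) and 3.12 ± 1.53 CPM in uninjured-sire animals (SD, n = 6), or -0.14 ± 0.29 (SE) as a log2 fold change (edgeR adjusted p = 0.937). These values rest on 70 to 155 counts per injured-sire library and 58 to 210 per uninjured-sire library. Counting alone would give a coefficient of variation of 9.84% and 9.35%, and the observed ones were 31.3% in injured-sire and 48.9% in uninjured-sire libraries. Without uninjured-sire replicate 22 the sign turned, to 0.13 on the log2 scale.

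Hcn2 (ENSMUSG00000020331, chromosome 10, 79552468 to 79571942, plus strand) was the steadiest. Its CPM were 51.7, 49.1, 55.6, 54.7 and 54.8 in injured-sire replicates 12, 13, 14, 15 and 17, and in uninjured-sire libraries they ran from 47.0 to 59.4 with a median of 53.0. Both groups centred on the same level, 53.2 ± 2.73 CPM in injured-sire animals (SD, n = 5) and 53.0 ± 4.62 CPM in uninjured-sire animals (SD, n = 6), and the log2 fold change was 0.0049 ± 0.065 (SE, edgeR adjusted p = 0.992). Its sign had no fixed direction over other processing settings.

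Hcn4 (ENSMUSG00000032338, chromosome 9, 58730695 to 58770458, plus strand) was, per kb of exon, far less abundant than Hcn2. It had 12.8, 16.9, 19.8, 18.9 and 14.6 CPM in the injured-sire replicates in the same order, and 13.5 to 17.7 CPM with a median of 16.3 in uninjured-sire libraries. The injured-sire libraries spread to both sides of the uninjured-sire ones, and the means were 16.6 ± 2.91 CPM in injured-sire animals (SD, n = 5) and 16.1 ± 1.498 CPM in uninjured-sire animals (SD, n = 6). The log2 fold change was 0.046 ± 0.11 (SE, edgeR adjusted p = 0.947). Of the 6 atrial markers 1, the atrial growth factor gene Bmp10, was called higher (287 ± 14.2 CPM in injured-sire and 234.5 ± 13.5 CPM in uninjured-sire animals, edgeR adjusted p = 0.0243), and its part in the Hcn4 value was not tested beyond the next fit. Hcn4 changed sign with all 12 libraries (-0.077) and with the atrial marker score as a covariate (-0.057).

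Cacna1g (ENSMUSG00000020866, chromosome 11, 94299217 to 94365024, minus strand) encodes the pore of a T-type calcium channel, which opens at low voltage and is known from nodal cells. It had 40.3, 40.7, 56.0, 42.8 and 49.2 CPM in injured-sire replicates 12, 13, 14, 15 and 17. Uninjured-sire libraries held 39.6 to 54.6 CPM with a median of 44.2, and 1 library in each group, injured-sire replicate 14 and uninjured-sire replicate 23, stood above 50 CPM. The log2 fold change was 0.022 ± 0.089 (SE, edgeR adjusted p = 0.969).

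Gja1 (ENSMUSG00000050953, chromosome 10, 56253426 to 56278609, plus strand) had the smallest p of the 7. It had 305, 292, 329, 297 and 279 CPM in injured-sire replicates 12, 13, 14, 15 and 17, and 285 to 412 CPM with a median of 343 in uninjured-sire libraries. The 3 highest libraries, replicates 21, 22 and 23, were all from offspring of uninjured males, while the other 3 uninjured-sire libraries, replicates 18, 19 and 20, lay within the injured-sire range. The means were 300.4 ± 18.5 CPM in injured-sire animals (SD, n = 5) and 347 ± 46.3 CPM in uninjured-sire animals (SD, n = 6). The difference was -0.21 ± 0.077 on the log2 scale (SE), or -13.4% with an interval of -22.6% to -3.09%. The smooth muscle and pericyte marker sum did not overlap between the compared groups, at 2228 to 2468 CPM in injured-sire and 1941 to 2211 CPM in uninjured-sire libraries. Injured-sire replicate 16, left out of the comparison, had 2164 CPM when all 12 libraries were scaled together. Of the 10 genes in this sum 7 were higher and 3 lower, 4 and 1 of them at an unadjusted p below 0.05 (all genes: 4.28% and 4.68%) and none called (edgeR). Acta2, Myh11, Tagln and Cnn1 had log2 fold changes of 0.38, 0.47, 0.45 and 0.69. Those of Lmod1, Pdgfrb and Rgs5 were 0.13, 0.067 and 0.0055, and those of Smtn, Abcc9 and Kcnj8 -0.039, -0.078 and -0.16. As deviations from the group means, the mean of these genes had r = 0.37 with Gja1. The part of this sum in the Gja1 value was not tested. The Gja1 difference did not pass over all genes (unadjusted p = 0.0149, edgeR adjusted p = 0.399). With no filter on low counts, where 236 genes were called in place of 18, Gja1 was among them (log2 fold change -0.23, edgeR adjusted p = 0.0158). Over the 25 other settings the log2 fold change ran from -0.46 to -0.15, and the edgeR, limma or DESeq2 adjusted p from 0.0158 to 0.701.

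Gja5 (ENSMUSG00000057123, chromosome 3, 96812009 to 96984732, plus strand) had 11.1, 12.6, 12.2, 18.6 and 11.2 CPM in injured-sire replicates 12, 13, 14, 15 and 17, and 10.6 to 15.5 CPM with a median of 14.6 in uninjured-sire libraries. Replicate 15 stood above all other libraries of both groups, and the remaining injured-sire values lay in the lower part of the uninjured-sire range. The log2 fold change was -0.067 ± 0.13 (SE, edgeR adjusted p = 0.933), and without replicate 15 it was -0.23 (edgeR adjusted p = 0.571). It was -0.17 with all 12 libraries, -0.22 with the atrial score, -0.24 with the clock score and -0.13 with airway and fat scores, and not called in any of these. Other settings made it smaller: -0.013 without injured-sire replicate 12, -0.016 without 17 and -0.030 without uninjured-sire replicate 22. Of the exons of Gja5, 165 bp are overlapped by Gpr89 on the opposite strand, which had 460 to 674 counts. Reads were assigned to genes by strand in the deposited table.

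Gjc1 (ENSMUSG00000034520, chromosome 11, 102690405 to 102710526, minus strand) had 35.3, 28.9, 35.4, 33.7 and 31.0 CPM in injured-sire replicates 12, 13, 14, 15 and 17, and 27.6 to 34.5 CPM with a median of 30.4 in uninjured-sire libraries. The 2 highest libraries were injured-sire replicates 12 and 14, and the lowest was uninjured-sire replicate 23. The log2 fold change was 0.087 ± 0.077 (SE, edgeR adjusted p = 0.808), so the mean lay 6.20% higher in offspring of injured males, with an interval of -4.92% to 18.6%.

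**Figure D2:**
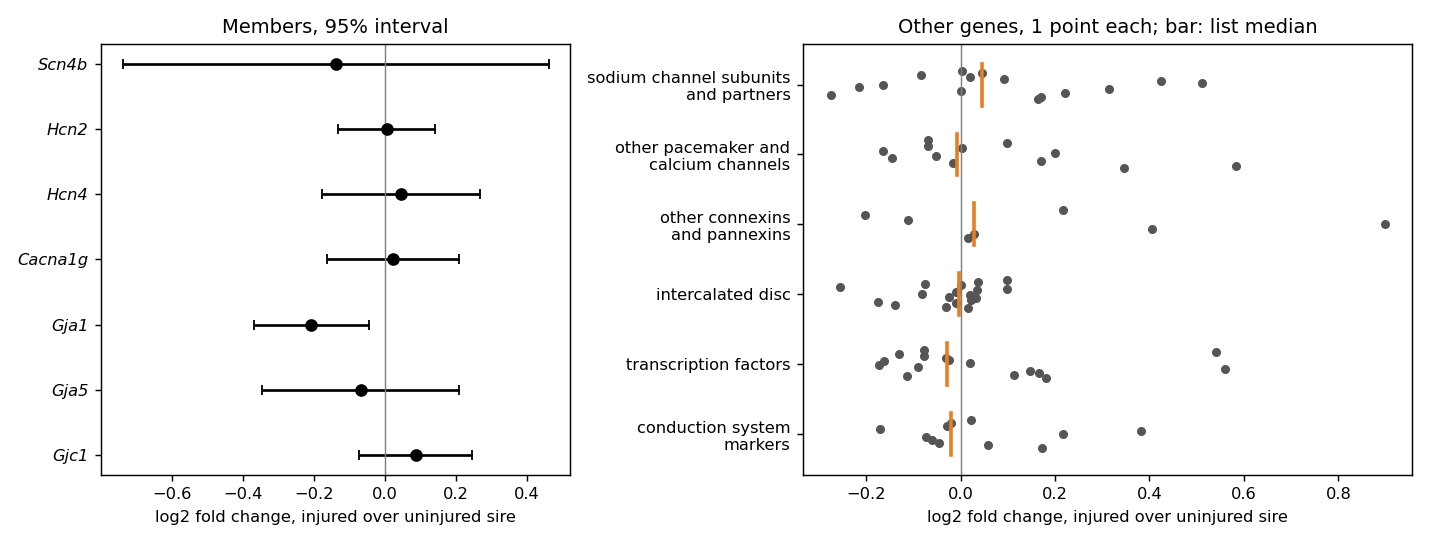
Left, log2 fold change (injured over uninjured sire) of the 7 genes with 95% confidence intervals; right, the same for the tested genes of 6 related lists, 1 point a gene, with the list median as an orange bar. The Gja1 interval lies below 0 and the other 6 cross it, Scn4b with the widest.

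Per kb of exon the 7 genes spanned a wide range of levels. Gja1 was highest, with 29.3 ± 1.80 CPM per kb in injured-sire animals (SD, n = 5) and 33.8 ± 4.52 CPM per kb in uninjured-sire animals (SD, n = 6). Hcn2 followed with a mean over the 11 libraries of 16.6 ± 1.16 CPM per kb (SD), then Gjc1 with 6.36 ± 0.559, Cacna1g with 4.48 ± 0.547, Hcn4 with 2.67 ± 0.350, Gja5 with 2.35 ± 0.423 and Scn4b with 0.600 ± 0.246. Of the 6 neighbouring pairs in this order, 5 held in all 11 libraries. Hcn4 and Gja5 did not differ beyond their spread, with Hcn4 higher in 9 of 11 libraries. Lengths are the summed exons of the annotation, which can exceed those of the transcripts in these cells.

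**Figure D3:**
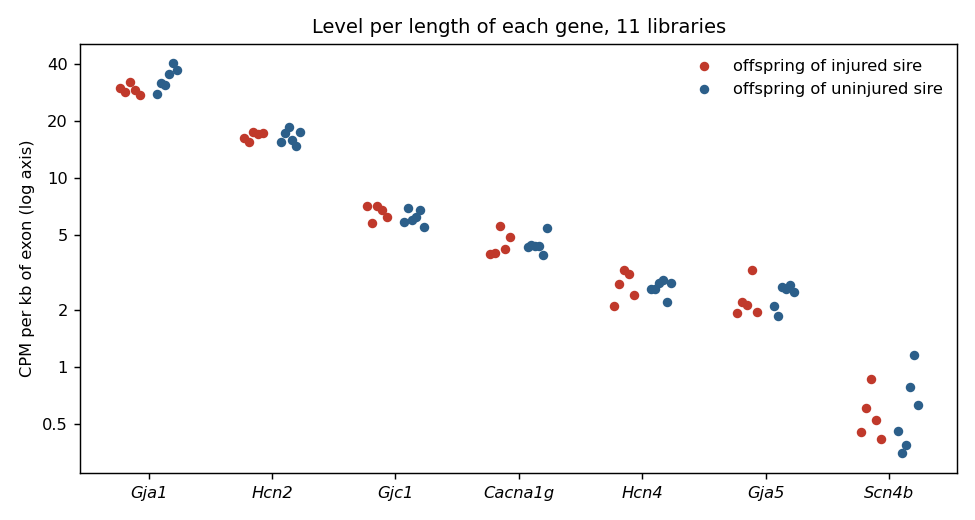
Level of each gene in CPM per kb of exon (log axis), 1 point per library, injured-sire left and uninjured-sire right of each gene. The genes are ordered by mean level from Gja1 to Scn4b, and only the neighbours Hcn4 and Gja5 share most of their range.

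Each gene was next set against its own family, as its share of the family's counts per kb, which needs no scaling between libraries. Hcn2 made up 84.2 ± 2.03% of Hcn counts per kb in injured-sire animals (SD, n = 5) and 85.1 ± 1.03% in uninjured-sire animals (SD, n = 6), with Hcn4 at 13.7 ± 1.92% and 13.5 ± 0.950%. Cacna1g took 58.9 ± 3.73% in injured-sire and 56.5 ± 5.12% in uninjured-sire libraries of the T-type family. Nearly all the rest was Cacna1h, another T-type pore gene, at 40.6 ± 3.77% and 43.2 ± 5.03%, with Cacna1i at 0.475 ± 0.468% and 0.275 ± 0.145%. Scn4b made up 10.47 ± 1.84% of the beta subunit counts per kb in injured-sire and 10.2 ± 3.44% in uninjured-sire libraries, with Scn3b at 6.85 ± 2.55% and 4.68 ± 1.71%, and Scn2b at 1.75 ± 1.33% and 1.21 ± 0.590%.

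Gja1 made up 51.3 ± 1.504% of connexin counts per kb in offspring of injured males and 55.4 ± 4.15% in offspring of uninjured males, a difference of -4.17 percentage points. Gja4, a connexin of arterial endothelium, followed with 16.5 ± 2.61% in injured-sire and 15.3 ± 3.75% in uninjured-sire libraries, then Gja3 with 12.8 ± 2.01% and 11.9 ± 1.17%, Gjc1 with 11.5 ± 0.706% and 10.2 ± 1.03%, and Gja5 with 4.01 ± 1.01% and 3.94 ± 0.539%. These shares and their order depend on annotated exon lengths, such as 10257 bp for Gja1 and 1685 bp for Gja4. Undivided by length, the injured-sire means were 300 CPM for Gja1, 32.9 for Gjc1, 21.6 for Gja3 and 15.8 for Gja4. In uninjured-sire libraries they were 347, 30.9, 21.4 and 15.5 CPM. None of the 4 shares of Scn4b, Hcn2, Cacna1g and Gja1 passed an exact two-sided permutation test over 462 regroupings of the libraries, with p of 0.879, 0.390, 0.405 and 0.0671 and, adjusted over the 4, 0.879, 0.540, 0.540 and 0.268. The smallest p this design allows with all compared libraries is 0.00216, and it is larger when a library is left out. Without uninjured-sire replicate 18 the Gja1 share differed by -5.47 points and passed (exact permutation p = 0.00794, adjusted p = 0.0317). It passed in none of the other settings, where the adjusted p of this permutation test ran from 0.121 undivided by length to 0.476.

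**Figure D4:**
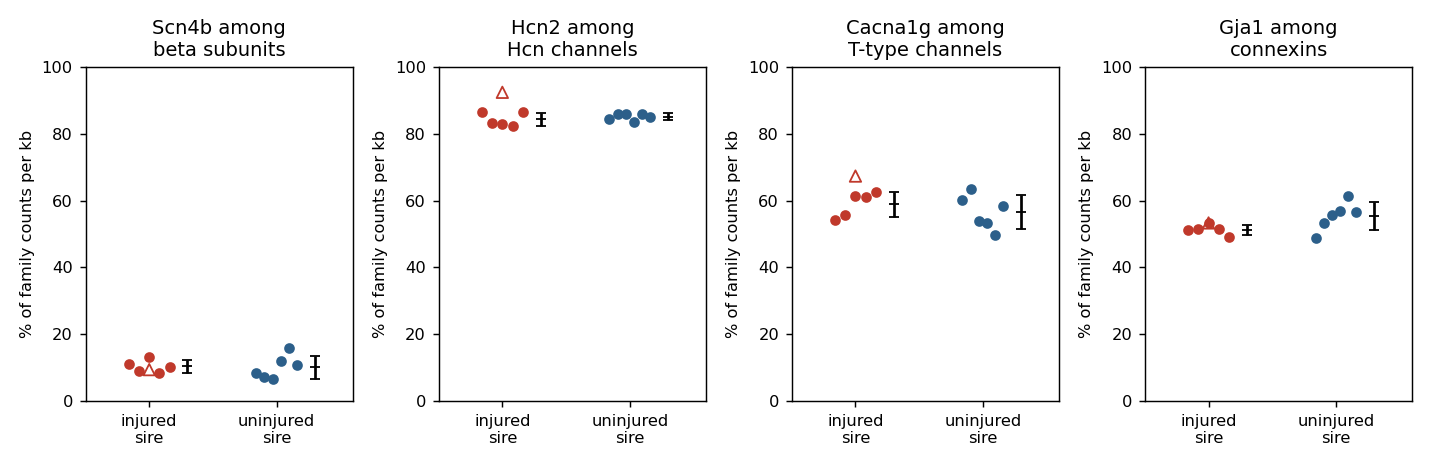
Share of each family's counts per kb taken by 1 gene (vertical axes in %, 0 to 100), 1 point per library, injured-sire left and uninjured-sire right, with the mean and SD in black and replicate 16 as an open triangle. Hcn2 takes over 80% of its family in every library. For Gja1, uninjured-sire replicate 18 (48.9%) lies below all compared injured-sire libraries, which have 49.0% to 53.2%. The other uninjured-sire libraries lie above them, at 53.3% to 61.4%.

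How the 7 genes moved from animal to animal was described with deviations of log2 CPM from the group means over the 11 libraries, with no test. All points come from the same libraries and share their depth and scaling. Of the 21 pairs, Scn4b and Gja1 had the highest correlation (r = 0.82, rho = 0.85). Uninjured-sire replicate 22 was highest for both, with 5.76 CPM of Scn4b and 412 CPM of Gja1. Without the 2 libraries farthest from the Scn4b median, injured-sire 14 and uninjured-sire 22, r was 0.62. The next pairs, Hcn2 with Cacna1g (r = 0.59) and Hcn4 with Cacna1g (r = 0.52), dropped to 0.40 and 0.21 without the 2 farthest libraries. Other pairs rose in the same way, Hcn4 with Gja5 from 0.42 to 0.61 and Hcn4 with Gja1 from -0.0086 to 0.65. The last was then above the 0.62 of Scn4b and Gja1, so the order of the pairs depended on a few libraries. Scn4b and Hcn2 had the most negative value (r = -0.52, rho = -0.37).

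The 7 genes were also set beside the mean of each marker list, and the correlations given here are a selection. The mean of 8 cardiac myocyte markers (Myl2, Myl3, Myh6, Tnnt2, Tnni3, Actc1, Ryr2 and Ttn) ran against both Scn4b (r = -0.90) and Gja1 (r = -0.80) in the 11 libraries. The arterial endothelial list, which shares Gja4 with the connexins, had r = 0.06 with Gja5, and the atrial list had r = 0.47 with Gja5 and 0.42 with Hcn4. Gjc1 had r = -0.64 with the glial and neuronal list, and Cacna1g r = 0.79 with the skeletal muscle list. Injured-sire replicate 14, the library with most Cacna1g, had a skeletal muscle marker sum of 29.8 CPM, where the other injured-sire libraries had 3.86 to 5.005 CPM and the uninjured-sire libraries 2.36 to 3.58 CPM, and its part in the Cacna1g value was not tested. Without this library the log2 fold change of Cacna1g was -0.061. A clock score was set beside these genes. The score of 9 output and repressor genes minus 3 activator genes ran from 1.09 to 2.74 in injured-sire and from 0.139 to 1.85 in uninjured-sire libraries, in log2 units. Collection times are not given in the labels. Within the groups this score correlated with Gja1 (r = 0.69, and 0.52 without the 2 farthest libraries) and Scn4b (r = 0.67, and 0.39), and less with the other 5 genes (r from -0.41 to 0.37). With the score as a covariate the log2 fold change was -0.46 ± 0.10 (SE) for Gja1 (unadjusted p = 0.000188, edgeR adjusted p = 0.225). It was -0.999 ± 0.38 for Scn4b (unadjusted p = 0.0153, edgeR adjusted p = 0.777), and Gjc1 changed sign (-0.028). In this fit 0 of all genes were called. Only injured-sire replicate 17 (1.09) and uninjured-sire replicate 22 (1.85) had scores within the range of the other group. Score and sire group therefore cannot be told apart well, and the fit rests largely on these libraries.

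**Figure D5:**
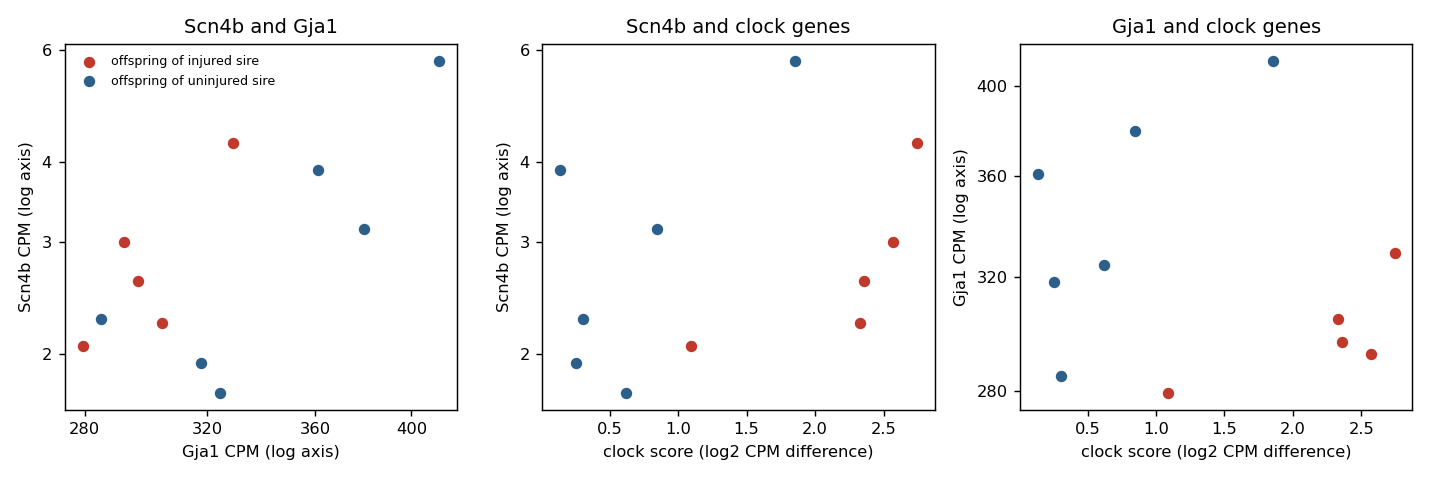
Scn4b against Gja1 (left, CPM on log axes), and Scn4b (middle) and Gja1 (right, CPM on a log axis) against the clock score in log2 units, 1 point per library. In each group the library highest for Gja1 is also highest for Scn4b, and 4 of 5 injured-sire libraries lie at higher clock scores than any uninjured-sire library, while no injured-sire value of either gene exceeds the uninjured-sire maximum.

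The genes most like each of the 7 by the same measure were looked up among 10612 or 10613 named genes, so that the highest r of so many is bound to be high. For Scn4b they were Polr3gl (r = 0.92), Selenow (0.90) and Dgkq (0.90), for Gja1 Dop1b (0.97), Slc22a23 (0.95) and Thbs1 (0.90), and for Hcn2 Glo1 (0.97), Hmcn1 (0.93) and Lrtm1 (0.93). Hcn4 was most like Nudt12 (0.94), Rmi1 (0.93) and Samd4b (0.91), Cacna1g like Sh3pxd2a (0.92), Jmjd8 (0.89) and Mark4 (0.89), Gja5 like Slc35c2 (0.91) and Wbp4 (0.90), and Gjc1 like Hbegf (0.92), Nars2 (0.87) and Oxnad1 (0.86). None of the genes named here was itself called between the groups (edgeR adjusted p from 0.556 to 0.995).

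Other genes of conduction were examined in 6 lists with 97 genes, of which 79 were tested. None was called (0 of 79, against 0.105% of all genes in the edgeR test), 4 were higher and 5 lower at an unadjusted p below 0.05 (all genes: 4.28% and 4.68%), and 43 had a log2 fold change above 0. Intercalated disc genes, which hold myocytes together where the gap junctions lie, had 9 of 18 higher and a median of -0.0034. Their smallest p values belonged to genes that were lower in offspring of injured males. Cxadr, a cell adhesion gene, had 46.5 ± 3.82 CPM (SD, n = 5) in injured-sire and 55.5 ± 5.55 CPM (SD, n = 6) in uninjured-sire libraries (log2 fold change -0.25 ± 0.073, SE, edgeR adjusted p = 0.229). Pkp2, the desmosome gene plakophilin, did not overlap between the groups, at 114.1 to 128 CPM in injured-sire and 129 to 148 CPM in uninjured-sire libraries (log2 fold change -0.17 ± 0.054, SE, edgeR adjusted p = 0.262). It was the only 1 of the 79 without overlap, and 1.06% of all genes had none. Jup, the desmosome gene plakoglobin, stood at -0.14 ± 0.049 (SE, log2 fold change, edgeR adjusted p = 0.361), and Tjp1, the scaffold that binds Cx43, at 0.015 ± 0.063 (edgeR adjusted p = 0.971).

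Sodium channel subunits and partners had 11 of 15 tested genes higher, with a median log2 fold change of 0.046. The skeletal muscle sodium channel gene Scn4a was at 0.22 ± 0.13 (SE) and the beta subunit Scn3b at 0.42 ± 0.27, neither called (edgeR adjusted p = 0.671 and 0.699). Other pacemaker and calcium channel genes had 6 of 12 higher, among them the calcium channel beta subunit Cacnb2 at 0.20 ± 0.094 (edgeR adjusted p = 0.550) and Pex5l, whose product binds Hcn channels, at 0.58 ± 0.33 (0.632). Of 20 other connexins and pannexins 7 were tested and 5 of these were higher. The 13 others were too low in count, and Gje1 had 0 counts in every library. Gjc3, a connexin known from myelinating glia, was at 1.25 ± 0.534 CPM (SD, n = 5) in injured-sire and 0.670 ± 0.262 CPM (SD, n = 6) in uninjured-sire libraries (log2 fold change 0.90 ± 0.40, SE, edgeR adjusted p = 0.505), beside a glial and neuronal marker sum of 21.4 to 48.4 CPM in injured-sire and 17.1 to 34.5 CPM in uninjured-sire libraries. Panx2, a pannexin gene, was at 0.22 ± 0.25 (SE, log2 fold change, edgeR adjusted p = 0.863).

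Transcription factors of the conduction system had 7 of 16 higher (median log2 fold change -0.028). Gata4, a cardiac zinc finger factor, was at -0.17 ± 0.058 (SE), Tbx5 at 0.11 ± 0.054 and Tbx2, a T-box repressor, at 0.18 ± 0.094, with edgeR adjusted p of 0.328, 0.545 and 0.592. Marker genes of the conduction system had 5 of 11 higher (median -0.019). Smoc2 (-0.17 ± 0.063), Cntn2, a surface protein gene of Purkinje cells (0.17 ± 0.10), and Vsnl1, a calcium sensor gene (0.38 ± 0.31), had edgeR adjusted p of 0.392, 0.677 and 0.786. Cntn2 was measured in all libraries, at 20.4 ± 2.17 CPM (SD, n = 5) in injured-sire and 18.1 ± 2.77 CPM (SD, n = 6) in uninjured-sire libraries.

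Injured-sire replicate 16 stood apart in several of these genes when all 12 libraries were scaled together. It had 8.48 CPM of Hcn4, where the other injured-sire libraries had 12.7 to 19.7 and the uninjured-sire libraries 13.4 to 17.6. It had 7.83 CPM of Gja5 (other injured-sire 10.98 to 18.4, uninjured-sire 10.6 to 15.4) and 35.9 CPM of Cacna1g (39.97 to 55.6 and 39.3 to 54.3). These 3 were the lowest of the 12 libraries, while Hcn2, at 59.9 CPM, was the highest (48.7 to 55.3 and 46.7 to 58.9). Hcn2 made up 92.3% of the Hcn family there. In the same library the atrial marker sum (3310 CPM, others 3378 to 4177) and the conduction system marker sum (380.4 CPM, others 395 to 459) were the lowest of 12, as was the sum of other pacemaker and calcium channel subunits (511 CPM, others 534 to 676). The sum of conduction transcription factors (753 CPM, others 670.2 to 744) was the highest of 12. The part of these sums in the values was not tested. With replicate 16 included, none of the 7 genes was called, and Hcn4 (-0.077) and Cacna1g (-0.030) changed sign.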

How the data were processed

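RNA of snap-frozen ventricle was sequenced in bulk from 12 offspring. The authors deposited raw read counts per Ensembl gene, made with featureCounts 2.1.1 with strand setting 2 (reverse) and without multi-mapping reads, on release 114 of the GRCm39 annotation; this is per the file headers. Other tools in the submitters' processing notes are STAR 2.7.10a, Subread 2.0.3, Salmon 1.9.0 and DESeq2 1.44.0. Exon lengths are another column of the deposited table. Its 11 sample columns outside this series were not used. Symbols of GENCODE M21 matched 51487 of 78317 IDs.

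The groups were compared with edgeR 4.0.16 in R 4.3.3 (filterByExpr with minimum count 10, TMM, robust quasi-likelihood F test, two-sided, Benjamini-Hochberg over 17130 genes, threshold 0.05), checked on simulated counts. CPM are TMM-scaled; for log2 CPM 2 was the prior count. Alternatives used limma 3.58.1 and DESeq2 1.42.0. The genes and lists were chosen with earlier results of these data known. Members were all named, then, by smallest p, 3 genes per list, family partners for the shares, and the 3 genes most like each member (mean log2 CPM 2 or more). Tjp1, Gja3, Gje1 and Bmp10 were named after their values were seen, and some genes taken by the rule are not reported here. Promoter sequence is from RefSeq, GRCm38.p6.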

Additional observations from a re-analysis of the deposited data

Results flagged for a closer look

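Chance alone marks about 1 in 20 groups by the gap used here, and 22 groups of 5 or 6 libraries were examined (7 genes and 4 family shares). Cacna1g had 54.6 CPM in uninjured-sire replicate 23, where the nearest of the other 5 had 44.7 CPM, and this gap made up 0.663 of the group's range. Gja5 had 18.6 CPM in injured-sire replicate 15, where the nearest of the other 4 had 12.6 CPM, a gap of 0.791 of the range.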

How the results depend on the processing

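No paired analysis was possible because no replicate number occurs in both groups. Over 25 alternatives none of the 7 genes was called except Gja1 with no filter (-0.23). Small log2 fold changes switched sign: with all 12 libraries Hcn4 (-0.077) and Cacna1g (-0.030); for Hcn2 with upper-quartile factors (-0.0040), no filter (-0.013), the sex-linked score (-0.00037) and the atrial score (-0.017); for Hcn4 with the atrial score (-0.057) and, chosen after seeing the data, airway and fat scores (-0.041); and for Gjc1 with the clock score (-0.028). Leaving out 1 library gave -0.34 to 0.13 for Scn4b, -0.027 to 0.041 for Hcn2, -0.026 to 0.12 for Hcn4, -0.061 to 0.084 for Cacna1g, -0.26 to -0.15 for Gja1, -0.23 to -0.013 for Gja5 and 0.056 to 0.13 for Gjc1. The sign turned without injured-sire 14 for Hcn2, Hcn4 and Cacna1g, without 15 for Hcn2 and Hcn4, without 17 for Hcn2 and Cacna1g, without uninjured-sire 18 or 21 for Hcn2, and without 22 for Hcn2, Hcn4, Cacna1g and Scn4b. The cause was not tested. Of all genes, 18 were called, and 236 with no filter, 28 at 1 CPM in 5 libraries, 134 by DESeq2, 49 at a threshold of 0.1, 0 with the clock score (edgeR) and 8 to 43 without 1 library: 28 without injured-sire 12, 8 without 13, 9 without 14, 43 without uninjured-sire 22 and 9 without 23. No scaling factor gave 17 higher and 8 lower of 25, and upper-quartile factors 7 and 12 of 19, against 9 and 9. The difference in share ran from -0.44 to 1.39 points for Scn4b without 1 library and was -0.25 without division by length, was 0.51 for Hcn2 with all 12 libraries and -1.74 undivided (-1.41 to -0.36 without 1 library), ran from 0.995 to 3.78 for Cacna1g without 1 library and was 3.77 with all 12, and ran from -5.47 to -2.98 for Gja1 without 1 library and was -2.79 undivided. Gene lengths are those of the annotation.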
